A study of Mus musculus with 12 samples.

Results

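Genes of protein folding, the unfolded protein response (UPR) and ER-associated degradation (ERAD) were examined in mouse liver by RNA-seq. The set holds 41 genes chosen by function from a fixed list of symbols, and all 41 were found among the 31114 genes measured. They comprise 12 genes of the BiP chaperone system, 9 folding enzymes and lectins, 12 ERAD genes and 4 translocon genes. The other 4 are the UPR sensors Atf6, Ern1 and Eif2ak3 and the transcription factor Xbp1. Of the 41 genes, 40 were among the 8846 genes tested. Genes tested had a level of at least 5 TPM, a measure corrected for transcript length, in 4 or more livers. The remaining member, Derl3, did not pass this filter. Livers came from 12 hFIX-R29X mice, a hemophilia B model without mouse F9 whose human FIX minigene bears the R29X nonsense codon and is driven by the human transthyretin promoter, so that even the vehicle controls carry both changes. Groups of 4 mice, 2 females (replicates 1 and 2) and 2 males (replicates 3 and 4), received the vehicle DPBS, a scrambled GalNAc-conjugated control ASO at 15 mg/kg or a GalNAc-conjugated ASO against Upf3b at 10 mg/kg. Mice were 8 to 14 weeks old, received 6 doses 5 days apart, and livers were taken 48 h after the last dose. The doses of the 2 ASOs thus differed, and an effect of dose cannot be told apart from an effect of sequence. GalNAc binds the asialoglycoprotein receptor and brings the ASO into hepatocytes, but the RNA was extracted from whole liver. In bulk RNA, fewer cells of a type and less RNA per cell cannot be told apart.

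Hepatocytes secrete most plasma proteins, coagulation factors included, and fold them in the ER. Nascent chains enter through the Sec61 channel, bind the HSP70 chaperone BiP (Hspa5) and its co-chaperones, and are oxidized by protein disulfide isomerases while calnexin and calreticulin hold glycoproteins in a folding cycle. Misfolded chains are extracted and degraded by ERAD, and when they accumulate the sensors IRE1, PERK and ATF6 start the UPR, which raises transcription of the same chaperones and ERAD genes. UPF3B is a factor of nonsense-mediated mRNA decay (NMD), a pathway that degrades transcripts with premature stop codons and also some normal mRNAs, among them several of the stress response.

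Expression is given as CPM, counts relative to the TMM-normalized library size, and changes as the log2 of the fold change with the SE of the edgeR fit. P-values are from edgeR and adjusted over all genes tested. In each list of 4 values the replicates stand in the order 1 to 4. Libraries held 13.28 to 20.39 M estimated counts. Those of the Upf3b-ASO group held 13.28, 17.05, 15.2 and 15.32 M, each fewer than any control ASO or DPBS library. Depth thus differed with treatment, and its part in the changes was not tested. Upf3b, the target, was at 10.4, 9.37, 13.5 and 10.9 CPM with DPBS, 8.6, 9.55, 7.93 and 12 CPM with control ASO and 1.58, 0.65, 0.996 and 0.674 CPM with Upf3b-ASO, with a log2 change of -3.30 (SE 0.27, adjusted p = 7.4e-05) against control ASO. All 8 hepatocyte markers were expressed. Their summed level was 117753, 119143, 85645 and 87917 CPM with DPBS and 117092, 115523, 119015 and 80448 CPM with control ASO. With Upf3b-ASO it was 104413, 103257, 72971 and 67834 CPM, below every liver of the same sex in the other groups. Not every marker was lower: Apob had a mean of 19651 CPM with Upf3b-ASO, 18916 with DPBS and 18706 with control ASO. The cause of the lower sum was not tested. Plasma and B cells, which are rich in the same ER genes, were scarce: their 7 markers summed to 3.04 to 6.63 CPM, and Tnfrsf17 was at 0 in 10 of 12 livers. Of the livers, 2 stood apart. Control ASO replicate 3 had a summed level of 10 acute phase genes of 32737 CPM, against 3805 to 6251 CPM in the others. Control ASO replicate 1 had the highest erythroid level, 2992 CPM over 5 genes against 211 to 548 CPM, and the highest neutrophil level, 51.2 CPM over 5 genes, followed by replicate 3 with 9.37 CPM and the others with 0.464 to 1.72 CPM. Both belong to the group against which the Upf3b-ASO was compared. Values without replicate 3 are therefore added where its removal changed a call, and the calls lost without replicate 1 are named further below.

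Both ASOs are 16-mers with a gap of 10 DNA bases, which recruits RNase H, between wings of 3 modified bases. They are shown 5′ to 3′ with the gap in capitals, since the site of the Upf3b ASO is the basis for asking whether another transcript was hit.
Upf3b ASO: ggaTATAGATGTAacg
Control ASO: ggcCAATACGCCGtca
The complement of the Upf3b ASO lies in the last exon of Upf3b, in the 3′ UTR (GRCm38, chrX:37091973-37091988, minus strand, exon 10 of 10). Among spliced transcripts of the tested genes, those of Upf3b alone held it without mismatch.

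Many UPR targets share a DNA element, and it is shown here because it ties the members to each other by sequence rather than by level. The ER stress response element ERSE, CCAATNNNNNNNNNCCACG, is bound by NF-Y at its first part and by ATF6 or XBP1 at its last, and ERSE-II, which reads ATTGG, 1 free base and CCACG, is a shorter form. Both were searched on both strands in RefSeq promoter windows of build GRCm38.p6, from 250 bases before to 50 bases after the start site, and no occurrence of the first element overlapped the second in a member. A window was listed for 33 of the 41 members. ERSE was found in 9 of them (27.3%), against 39 of all 32851 windows (0.119%), and ERSE-II in 2 (6.06%), against 12 windows (0.0365%). The members were chosen as UPR genes, so that this excess describes the choice and was not tested. Matches of the members that the results turn on are given 5′ to 3′ on the strand of the gene, with the fixed letters of the element in capitals. Where the element lies in the opposite orientation, its reverse complement is in capitals.
Hspa5: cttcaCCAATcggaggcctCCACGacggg
Hsp90b1, distal: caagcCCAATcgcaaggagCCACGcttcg
Hsp90b1, proximal: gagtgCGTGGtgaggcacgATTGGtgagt
Dnajc3: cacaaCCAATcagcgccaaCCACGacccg
Calr: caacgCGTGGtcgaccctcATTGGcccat
Pdia6: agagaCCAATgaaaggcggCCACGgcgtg
Herpud1, ERSE-II: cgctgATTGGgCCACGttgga
Dnajb11, ERSE-II: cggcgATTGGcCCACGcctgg
Coordinates are those of the whole printed stretches, flanking bases included, and distances are those of the elements. The Hspa5 stretch lies at chr2:34772020-34772048 on the plus strand, and its element begins 65 bases before the start site. Hsp90b1 carries a pair of elements in opposite orientation, which begin 212 and 107 bases before the start. Their stretches lie at chr10:86705633-86705661 and chr10:86705528-86705556 on the minus strand. The other stretches lie at chr14:118937822-118937850 (Dnajc3, plus strand), chr8:84847070-84847098 (Calr, minus), chr12:17266486-17266514 (Pdia6, plus), chr8:94386372-94386392 (Herpud1, plus) and chr16:22857847-22857867 (Dnajb11, plus). Canx, Creld2, Derl3 and Syvn1 also held an ERSE. A match is a run of letters and no measure of binding.

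In DPBS livers the members spanned a wide range of levels per transcript length, from 1089 ± 143 TPM (SD, n = 4) for P4hb to 2.47 ± 0.744 TPM for Derl3. P4hb, the main protein disulfide isomerase, was followed by Hsp90b1 (GRP94, the ER HSP90) at 672 ± 134 TPM and Herpud1, a membrane scaffold of the ERAD complex, at 599 ± 92.4 TPM. The latter pair did not differ beyond their SD, nor did Calr (447 ± 61 TPM) and Hspa5 (439 ± 70.9 TPM), which came next. The lectin Canx and the cyclophilin Ppib stood at 285 ± 28.9 and 253 ± 37.2 TPM. The sensors were much lower in order, with Atf6 at 20.9 ± 3.09, Ern1 (IRE1) at 20.7 ± 1.54 and Eif2ak3 (PERK) at 8.34 ± 1.66 TPM, while Xbp1, the transcription factor that IRE1 splices, reached 138 ± 22.8 TPM. Sil1, the exchange factor of BiP, was at 47.2 ± 6.47 TPM, rank 26 of 41. Sec61b and Sec61a1, subunits of the same channel, were at 136 ± 23.2 and 108 ± 13.6 TPM, but the small subunit Sec61g only at 8.11 ± 1.3 TPM. Derl3, the lowest member, was covered by 5 to 132 estimated counts per liver.

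**Figure D1:**
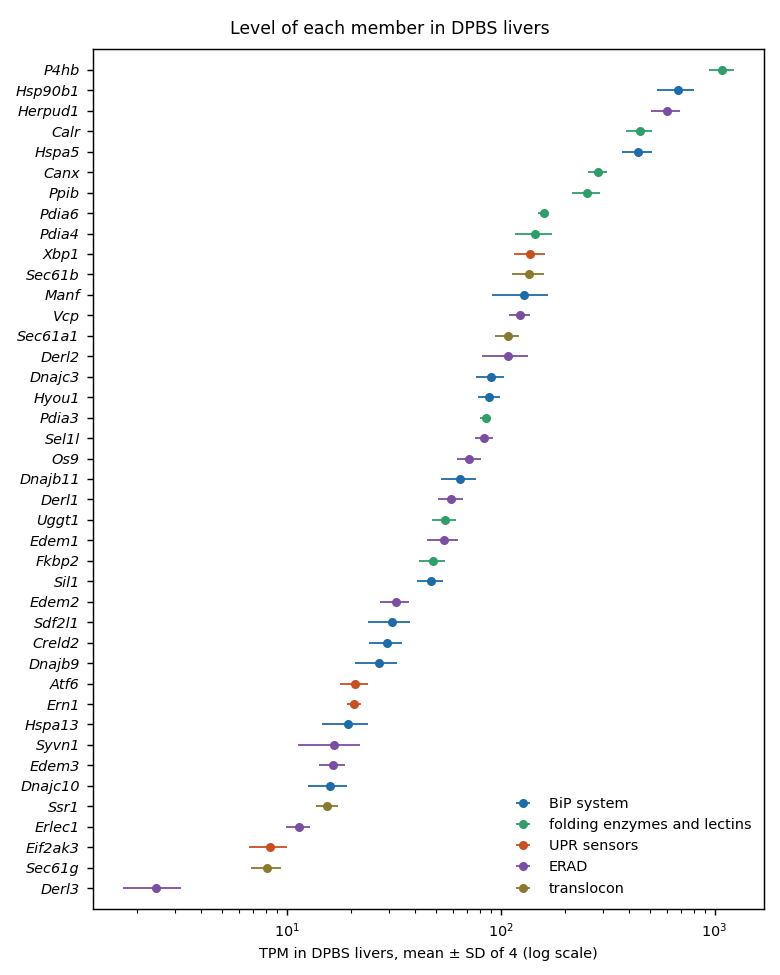
Mean TPM of each member in the 4 DPBS livers (horizontal axis, log scale) with the SD as bars, ordered by level and coloured by role. The highest ranks are mostly folding enzymes and chaperones, with the ERAD gene Herpud1 among them. The sensors Atf6, Ern1 and Eif2ak3 are in the lower ranks, as are several genes of the BiP system. Of the latter, Hspa13 and Dnajc10 rank below Atf6 and Ern1. Xbp1 shares the colour of the sensors.

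To determine how depletion of Upf3b affected these genes, their levels under Upf3b-ASO were set against those under control ASO. Of the 40 members tested, 9 rose and 2 fell at an edgeR adjusted p-value under 0.05, and 29 did not pass. Over all 8846 genes, 4.34% rose and 5.95% fell. The members that rose were Hyou1, Dnajc10, Sdf2l1, Pdia4, Pdia6, Calr, Ppib, Edem2 and Sec61b, and those that fell were Sil1 and Atf6. The median log2 change of the 40 members was 0.14, against -0.02 over all genes. Against DPBS livers, none rose and 4 fell (Sil1, Dnajc3, Uggt1 and Sel1l), while 3.57% of all genes rose and 5.36% fell, and the median of the members was 0.01. Both comparisons use the same Upf3b-ASO livers, so that they are not independent. Sil1 was the member called in both.

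**Figure D2:**
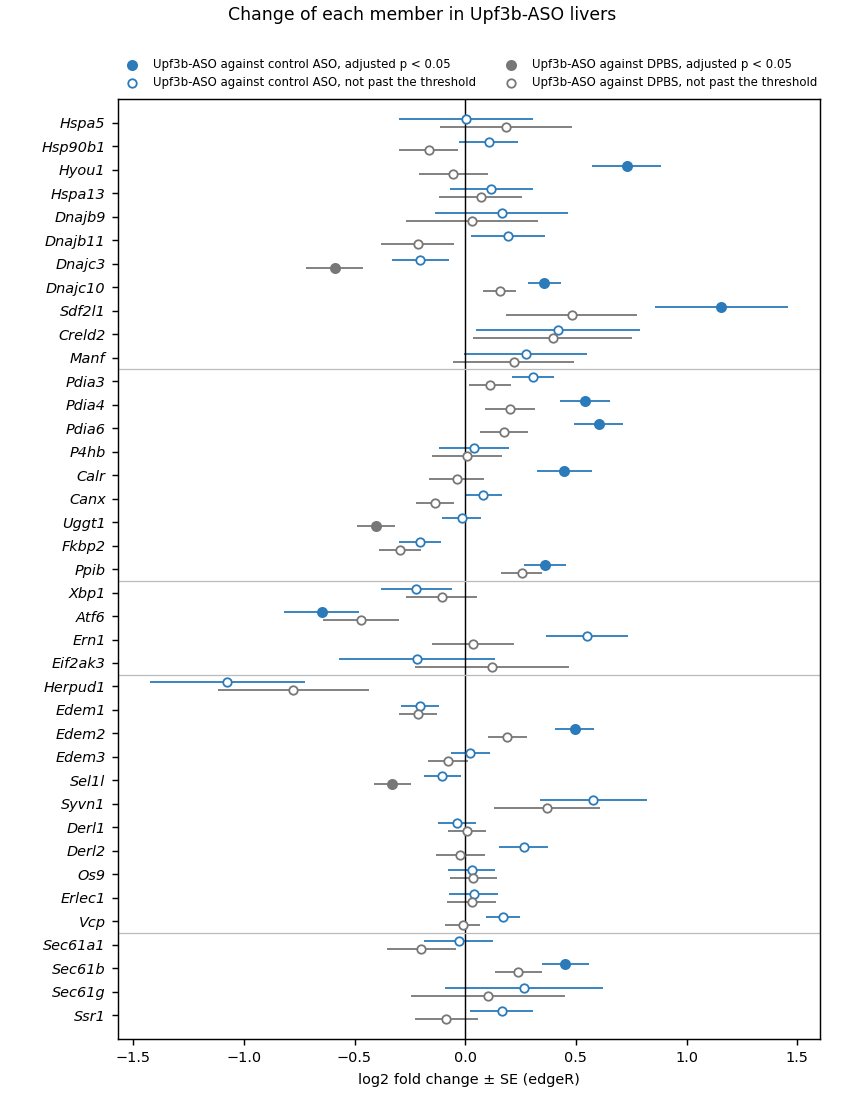
Log2 fold change of each tested member except Sil1 in Upf3b-ASO livers (horizontal axis) with its SE as bars, against control ASO (blue) and against DPBS (grey). Filled points passed the adjusted p-value of 0.05. The 9 filled points right of 0 are all blue, and the corresponding grey points stand closer to 0.

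Sil1 (ENSMUSG00000024357, chromosome 18, 35266396 to 35499780, minus strand, build GRCm38, protein coding) encodes a nucleotide exchange factor that releases ADP from BiP, and its loss in humans causes Marinesco-Sjögren syndrome. Its level was 65.6, 57.8, 64 and 62.7 CPM with DPBS and 52.2, 57, 49.5 and 59.1 CPM with control ASO. In Upf3b-ASO livers it was 3.66, 3.26, 5.13 and 2.38 CPM. The 4 treated livers were thus all far below the other 8, which overlapped each other. Sil1 fell by 93.4% against control ASO, with a log2 change of -3.92 (SE 0.19, adjusted p = 2.5e-06), and by 94.2% against DPBS, with -4.12 (SE 0.19, adjusted p = 1.7e-06). It was the member with the largest change in either comparison. The call held in all 9 alternatives and with each liver left out in turn, with a log2 change between -4.15 and -3.44 against control ASO. A fold on low counts is less precise, and Sil1 was covered by as few as 36 counts in a treated liver. The files hold a single Sil1 transcript, Sil1-201 (1695 bases, protein coding) and the spread of reads along it was not examined.

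The letters of the ASO were set against the members as well. In spliced transcripts, the closest site for the Upf3b ASO in Sil1 had 6 mismatches, and 92% of all tested genes had a site with 6 or fewer. Among the members, the closest site had 4 mismatches in Derl2, 5 in 16 members, 6 in 19 and 7 in 5. Derl2 had a log2 change of 0.26 (SE 0.11, adjusted p = 0.15) against control ASO. For the control ASO the closest site had 5 mismatches in Sil1, and Edem2, with 4, was the member with the closest site, where 6.66% of all tested genes had as few. Introns, which ASOs can also reach, were not searched.

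**Figure D3:**
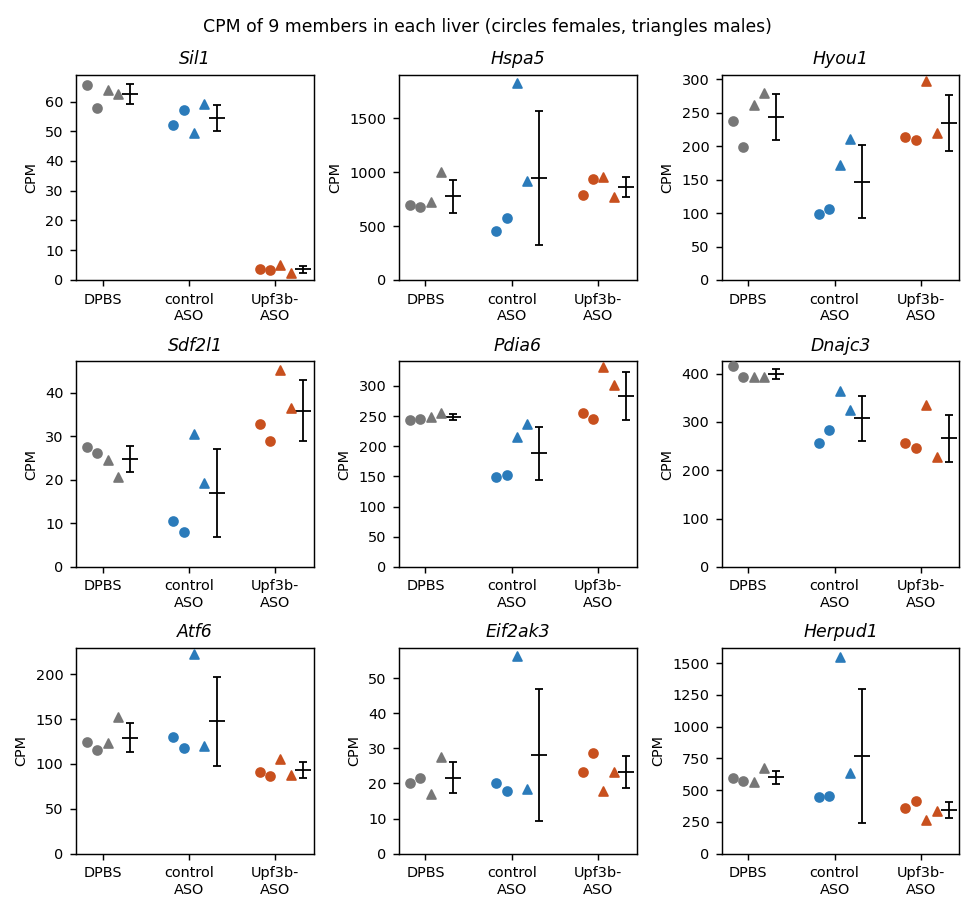
CPM of 9 members in each liver (vertical axes, from 0), with females as circles, males as triangles, and the mean ± SD of each group of 4 in black. Sil1 is low in all 4 Upf3b-ASO livers, and 1 control ASO male (replicate 3) is highest for Hspa5, Atf6, Eif2ak3 and Herpud1.

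In the BiP system, 3 of 12 genes rose against control ASO and Sil1 fell. BiP itself, the central chaperone of the ER, was at 692, 680.3, 726 and 1005 CPM with DPBS, 453, 578, 1829.8 and 916 CPM with control ASO and 790, 932, 958 and 767 CPM with Upf3b-ASO. The control ASO livers spanned a wider range than the other groups, with replicate 3 the highest of all 12 and replicate 1 the lowest. The log2 change of Hspa5 was 0.00 (SE 0.30, adjusted p = 1) against control ASO and 0.18 (SE 0.30, adjusted p = 0.77) against DPBS. Without control ASO replicate 3 the former was 0.40 (SE 0.18, adjusted p = 0.12). Hsp90b1, which folds a restricted set of clients beside BiP, was at 988, 953, 817 and 786 CPM, 635, 740.1, 774 and 789 CPM and 807, 728, 956 and 671 CPM in the same order of groups. Its groups overlapped, with a log2 change of 0.11 (SE 0.13, adjusted p = 0.64) and -0.16 (SE 0.13, adjusted p = 0.52) against control ASO and DPBS. Neither of the main ER chaperones passed the test.

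Hyou1 (GRP170, chromosome 9, 44379490 to 44392369, plus strand), a large HSP70 relative that, like SIL1, exchanges the nucleotide of BiP, was at 237, 199, 261 and 279.6 CPM with DPBS, 98.6, 106, 172 and 212 CPM with control ASO and 214, 210.1, 297 and 219 CPM with Upf3b-ASO. The control ASO females were low, and the treated livers lay within or above the DPBS range. Hyou1 rose against control ASO by 0.73 (SE 0.16, adjusted p = 0.015) on the log2 scale and was -0.05 (SE 0.15, adjusted p = 0.88) against DPBS. The rise was called in 5 of 9 alternatives and in 6 of 8 fits that left out a liver. Both exchange factors of BiP in the set were thus called against control ASO, in opposite directions. Sdf2l1 (chromosome 16, 17130138 to 17132383, minus strand), a cofactor of the ER J proteins, was at 27.6, 26.2, 24.5 and 20.7 CPM, 10.5, 7.95, 30.5 and 19.2 CPM and 32.9, 28.9, 45.3 and 36.5 CPM in the 3 groups. It showed the largest rise among the members, 1.16 (SE 0.30, adjusted p = 0.035), and all 4 treated livers also exceeded all DPBS livers, although the change against DPBS, 0.48 (SE 0.29, adjusted p = 0.37), did not pass. The call depended on single livers: it was kept in 1 of 8 fits that left out a liver, the one without control ASO replicate 3 (log2 change 1.49).

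Dnajc10 (ERdj5, chromosome 2, 80315466 to 80354043, plus strand), a reductase that opens disulfides before degradation, was at 46.4, 45.9, 38.7 and 39.5 CPM with DPBS, 40.4, 36.1, 33.7 and 37.5 CPM with control ASO and 52.1, 51.1, 41.6 and 45.2 CPM with Upf3b-ASO. Treated and control ASO livers did not overlap, and the rise was 0.36 (SE 0.07, adjusted p = 0.013). It depended on the scale: the log2 change was 0.11 (adjusted p = 0.53) with an offset for transcript length and 0.17 (adjusted p = 0.43) by limma on log2(TPM + 1), and the call was kept in 3 of 9 alternatives and 7 of 8 fits with a liver left out. Dnajc3 (P58IPK, chromosome 14, 118937976 to 118981697, plus strand), a J protein that binds substrates of BiP, took the other course. Its level was 415, 393, 393 and 394 CPM with DPBS, 256, 283, 364 and 325 CPM with control ASO and 256, 246, 336 and 226 CPM with Upf3b-ASO. Both ASO groups lay entirely below the DPBS livers. Dnajc3 fell by 33.6% against DPBS, a log2 change of -0.59 (SE 0.13, adjusted p = 0.017), while the difference between the ASO groups was -0.20 (SE 0.13, adjusted p = 0.32) and that of control ASO to DPBS -0.39 (SE 0.13, adjusted p = 0.64). All 9 alternatives and 5 of 8 fits with a liver left out kept the call against DPBS. The other members of the system, Hspa13, Dnajb9, Dnajb11, Creld2 and Manf, had log2 changes of 0.12 to 0.42 against control ASO and did not pass. For Creld2 and Manf, which are released from stressed cells, control ASO replicate 3 was at 73 and 113 CPM, the highest of 12 livers, and the control ASO females were the lowest. Without replicate 3, Creld2 rose by 0.89 (adjusted p = 0.016) and Dnajb11 by 0.38 (adjusted p = 0.039).

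Of the 9 folding enzymes and lectins, 4 rose against control ASO and none fell, with a median of 0.31. Pdia4 (ERp72, chromosome 6, 47796141 to 47813430, minus strand), an isomerase with an additional thioredoxin domain, was at 323, 292, 269.7 and 281 CPM with DPBS, 222, 237, 203 and 259.5 CPM with control ASO and 330.3, 327, 388 and 295 CPM with Upf3b-ASO. Pdia6 (P5, chromosome 12, 17266545 to 17284770, plus strand), which joins BiP in a chaperone complex and limits IRE1 and PERK signaling, was at 244, 245, 248 and 255 CPM, 149.6, 152, 216 and 236 CPM and 256, 246, 331 and 301 CPM. For both genes every treated liver exceeded every control ASO liver, and every control ASO liver lay below every DPBS liver. The log2 change against control ASO was 0.54 (SE 0.11, adjusted p = 0.013) for Pdia4 and 0.60 (SE 0.11, adjusted p = 0.0068) for Pdia6. Against DPBS it was 0.20 ± 0.11 and 0.18 ± 0.11, with adjusted p-values of 0.32 and 0.37. Both calls were kept with every liver left out, and in 6 and 8 of 9 alternatives. Pdia3 (ERp57), the partner of calnexin and calreticulin, had a change of 0.31 (SE 0.09, adjusted p = 0.065) against control ASO and did not pass, but without replicate 3 it did (0.39; adjusted p = 0.0045). P4hb did not pass, with 0.04 (SE 0.16, adjusted p = 0.89).

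Calr (calreticulin, chromosome 8, 84841850 to 84846934, minus strand), the soluble lectin of the folding cycle, was at 613, 618, 572 and 578 CPM with DPBS, 366, 351, 459.6 and 551 CPM with control ASO and 536, 521, 686 and 600 CPM with Upf3b-ASO. Again the control ASO livers all lay below the DPBS livers, and the treated livers lay around the DPBS range. The rise against control ASO was 0.45 (SE 0.12, adjusted p = 0.045), and a block for the replicate number raised the adjusted p to 0.082. Of 9 alternatives 3 kept the call, and of 8 fits with a liver left out 2. Its membrane-bound relative Canx stood at 0.08 ± 0.09 and did not pass (adjusted p = 0.56). Ppib (cyclophilin B, chromosome 9, 66060222 to 66066623, plus strand), a prolyl isomerase, was at 172, 176, 166 and 167 CPM, 138, 140, 182 and 179 CPM and 185, 185, 221 and 226 CPM. All 4 treated livers exceeded all control ASO and all DPBS livers, by a narrow margin. Ppib rose by 0.36 (SE 0.09, adjusted p = 0.034) against control ASO and with the block had an adjusted p of 0.071 and stood at 0.25 (SE 0.09, adjusted p = 0.12) against DPBS. Its call was kept in 4 of 9 alternatives and in 2 of 8 fits with a liver left out.

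Uggt1 (chromosome 1, 36140027 to 36244720, minus strand), the glucosyltransferase that returns misfolded glycoproteins to the lectins, was lower in both ASO groups. It was at 151, 149, 173 and 187 CPM with DPBS, 120.3, 111, 129 and 144 CPM with control ASO and 131, 109, 137 and 120.2 CPM with Upf3b-ASO. Neither ASO group overlapped the DPBS livers. Against DPBS it fell by 24.3% with Upf3b-ASO (log2 change -0.40 (SE 0.09, adjusted p = 0.016)), whereas control ASO against DPBS was -0.39 (SE 0.09, adjusted p = 0.51). Between the ASO groups the log2 change was -0.02 (SE 0.09, adjusted p = 0.92). The call against DPBS was kept in 4 of 9 alternatives and 5 of 8 fits with a liver left out. Fkbp2, another prolyl isomerase, had values of -0.20 ± 0.09 against control ASO and -0.29 (SE 0.09, adjusted p = 0.081) against DPBS, and did not pass.

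Among the UPR sensors and Xbp1, Atf6 fell and the other 3 genes did not pass. Atf6 (chromosome 1, 170704674 to 170867771, minus strand), a membrane-bound transcription factor that is released by cleavage in the Golgi, was at 124, 116, 124 and 153 CPM with DPBS, 129.9, 118, 222 and 119.7 CPM with control ASO and 91.3, 86.7, 106 and 88.1 CPM with Upf3b-ASO. The treated livers were below all other livers. The fall was -0.65 (SE 0.17, adjusted p = 0.037) against control ASO and -0.47 (SE 0.17, adjusted p = 0.12) against DPBS, which did not pass. Control ASO replicate 3 was high for Atf6, and without it the log2 change was -0.41 ± 0.09 (adjusted p = 0.0078). A block for the replicate number gave an adjusted p of 0.053, and 4 of 9 alternatives and 2 of 8 fits with a liver left out kept the call.

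Ern1 (chromosome 11, 106394650 to 106487852, minus strand), the kinase and RNase that splices Xbp1, was at 88.1, 88.5, 111 and 90.3 CPM, 71.3, 72.2, 39.4 and 81.4 CPM and 94.8, 96, 98.4 and 97.6 CPM in DPBS, control ASO and Upf3b-ASO livers. Control ASO replicate 3 was the lowest of 12, and the treated livers all exceeded the control ASO livers but not the DPBS livers. The log2 change against control ASO was 0.55 (SE 0.19, adjusted p = 0.085), and without replicate 3 it was 0.35 ± 0.07 (adjusted p = 0.0065). Eif2ak3 (chromosome 6, 70844515 to 70905245, plus strand), the kinase that attenuates translation, was at 20.1, 21.6, 17.1 and 27.6 CPM, 20.1, 17.8, 56.2 and 18.5 CPM and 23.2, 28.7, 17.8 and 23.2 CPM. Apart from control ASO replicate 3 the groups overlapped. Its log2 change was -0.22 (SE 0.35, adjusted p = 0.72) against control ASO and 0.33 (adjusted p = 0.19) without that liver.

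Xbp1 (chromosome 11, 5520659 to 5525893, plus strand) was at 157, 225, 186 and 202 CPM with DPBS, 156, 185, 286 and 226 CPM with control ASO and 155, 163, 176 and 231 CPM with Upf3b-ASO, with a log2 change of -0.22 (SE 0.16, adjusted p = 0.39) against control ASO. The groups overlapped. Xbp1 has 4 tested transcripts in the annotation, of which none was called. The most abundant, Xbp1-201, was at 95.8 ± 18.1, 95.5 ± 8.49 and 82.7 ± 8.67 TPM in the 3 groups. The IRE1 splice form differs from it by a short stretch, and reads across that junction were not counted separately here.

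In ERAD, 1 of 11 tested genes rose against control ASO and none fell. Edem2 (chromosome 2, 155701677 to 155729475, minus strand), the mannosidase that starts mannose trimming of misfolded glycoproteins, was at 45.6, 52, 55.2 and 66.7 CPM with DPBS, 37.2, 41.2, 52.1 and 47.4 CPM with control ASO and 58.3, 51.2, 72.3 and 69 CPM with Upf3b-ASO. The control ASO and treated livers overlapped, and males exceeded females in both groups. With sex in the fit the rise was 0.49 (SE 0.09, adjusted p = 0.0062), and without the sex term it was not called (0.50; adjusted p = 0.08). Its relatives Edem1 and Edem3 had log2 changes of -0.20 ± 0.09 and 0.02 ± 0.09 and did not pass (adjusted p = 0.15 and 0.89). Sel1l (chromosome 12, 91806043 to 91849157, minus strand), the scaffold of the HRD1 ligase, was at 223, 225, 233 and 259 CPM, 196, 191, 197 and 219 CPM and 182, 189.7, 204 and 172 CPM in the 3 groups. Both ASO groups lay below the DPBS livers, and the fall of Sel1l with Upf3b-ASO against DPBS was -0.33 (SE 0.08, adjusted p = 0.033), with an adjusted p of 0.073 under the block. This call was kept in 3 of 9 alternatives and in 1 of 8 fits with a liver left out. Control ASO against DPBS was -0.23 (SE 0.08, adjusted p = 0.64).

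Herpud1 (chromosome 8, 94386438 to 94395377, plus strand) had the most negative log2 change after Sil1, -1.07 (SE 0.35, adjusted p = 0.077) against control ASO and -0.78 (SE 0.34, adjusted p = 0.2) against DPBS, and passed in neither. It was at 592, 575, 561 and 672 CPM with DPBS, 447, 454, 1551 and 635 CPM with control ASO and 363, 413, 268 and 334 CPM with Upf3b-ASO. The 4 treated livers lay below all 8 others. Of the 40 members, 3 lay entirely below the control ASO livers and 8 entirely below the DPBS livers, against 7.7% and 12.1% of all genes. Control ASO replicate 3 widened the spread, and without it the log2 change was -0.57 ± 0.16 (adjusted p = 0.024). Upward, 6 members did not overlap control ASO livers (7.75% of all genes) and 2 did not overlap DPBS livers (10.4%). Syvn1 (HRD1), the ubiquitin ligase of the complex, stood at 0.58 (SE 0.24, adjusted p = 0.14) with overlapping groups. The remaining ERAD members, Derl1, Derl2, Os9, Erlec1 and Vcp, had log2 changes of -0.04 to 0.26 and did not pass. Derl3, which was not tested, ranged from 1.54 to 2.96 CPM with DPBS, 0.273 to 8.07 CPM with control ASO and 1.25 to 8.79 CPM with Upf3b-ASO.

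Of the translocon genes, Sec61b (chromosome 4, 47474658 to 47483242, plus strand), the tail-anchored beta subunit of the channel, rose. It was at 40.8, 41.4, 37.1 and 47.1 CPM with DPBS, 30.1, 30.5, 42.9 and 42 CPM with control ASO and 46, 43.8, 52.5 and 55.6 CPM with Upf3b-ASO. Treated livers did not overlap control ASO livers, and the log2 change was 0.45 (SE 0.11, adjusted p = 0.023). The call was lost in 6 of 8 fits with a liver left out, by limma with either pseudocount and without the sex term. The channel subunit Sec61a1, with -0.03 (SE 0.16, adjusted p = 0.92), and the associated protein Ssr1, with 0.17 (SE 0.14, adjusted p = 0.48), did not pass, although Ssr1 did without control ASO replicate 3 (0.35; adjusted p = 0.0061). Sec61g did not pass either, with 0.27 (SE 0.36, adjusted p = 0.66) on 24 to 78 counts per liver.

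**Figure D4:**
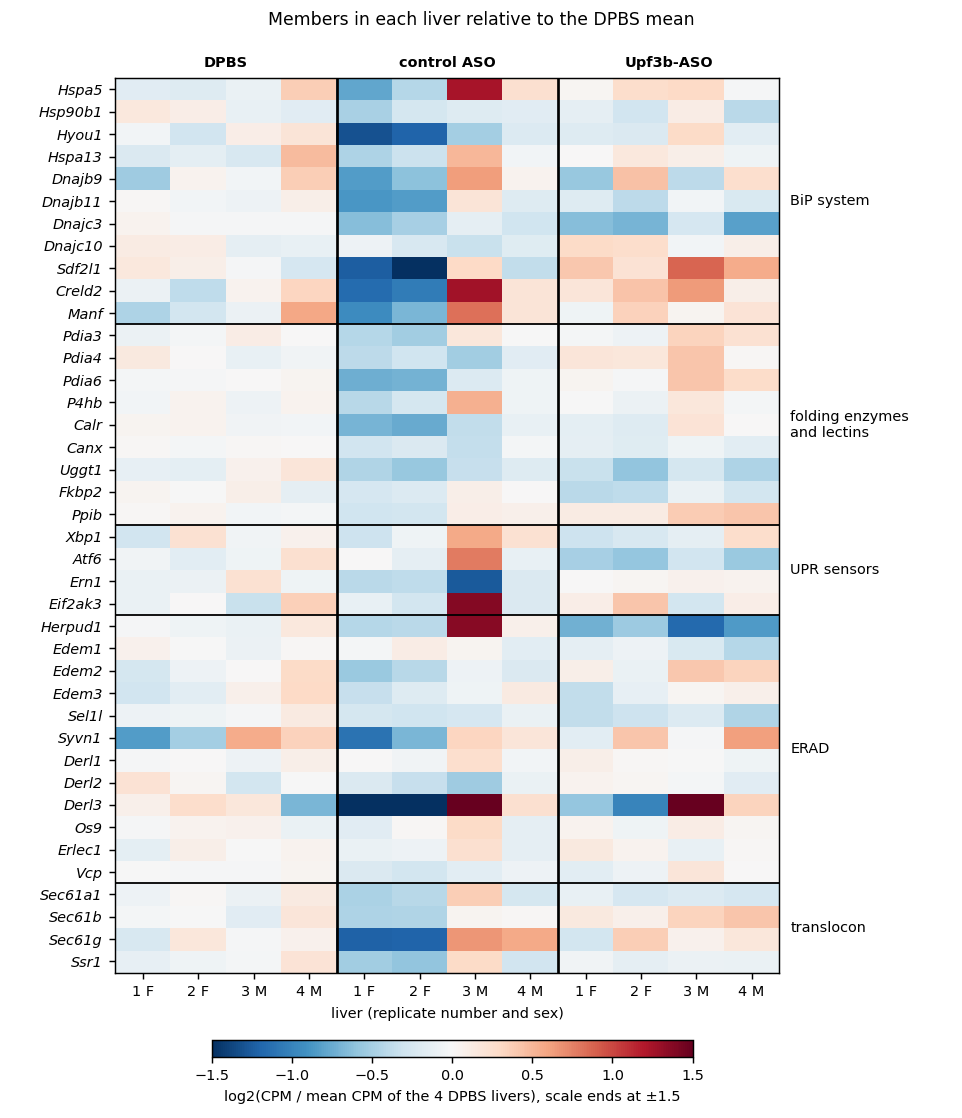
Log2 ratio of the CPM of each member to its mean in the 4 DPBS livers (colour, ends at ±1.5), with 12 livers as columns and 40 members, Sil1 left out, as rows ordered by role. The 2 control ASO females are blue over much of the set, control ASO replicate 3 is dark red for Hspa5, Creld2, Eif2ak3 and Herpud1, and the Upf3b-ASO livers are pale for most members.

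The 9 members that rose against control ASO were next set beside the DPBS livers. All 4 control ASO livers lay below all DPBS livers for Pdia4, Pdia6 and Calr, 3 of 4 did so for Hyou1, Dnajc10 and Sdf2l1, and 2 of 4, the females, for Ppib, Edem2 and Sec61b. The treated livers exceeded all DPBS livers in 4 of 4 cases for Sdf2l1 and Ppib, in 3 for Pdia4 and Pdia6, in 2 for Dnajc10, Edem2 and Sec61b and in 1 for Hyou1 and Calr. For control ASO against DPBS, 1 of 8846 genes (0.0113%) and 0 of 40 members were called by edgeR, although 15 members (617 of all genes) had an unadjusted p under 0.05. By the DESeq2 Wald test, 43 genes were called, 20 higher and 23 lower, among them 4 members, which were lower. The median log2 change of the members in this comparison was -0.19, against 0.01 over all genes, and 33 of 40 were negative. Groups that did not overlap, with control ASO below, were seen for 8 members (1.66% of all genes) and with control ASO above for 0 (1.29%).

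The control ASO females were the lowest livers for many members. In 19 of 40 members both control ASO females were lower than the other 10 livers, as was the case for 3.43% of all genes. Control ASO replicate 3 was the highest of 12 livers for 18 members and the lowest for 5, against 31.1% and 32% of all genes. The summed level of the 41 members was 9099, 9108, 8906 and 9713 CPM with DPBS, 6733, 7205, 11552 and 8856 CPM with control ASO and 8375, 8379, 9489 and 8335 CPM with Upf3b-ASO. The treated livers thus lay between the control ASO females and the control ASO male of replicate 3. Leaving out replicate 3 gave 14 members that rose and 3 that fell against control ASO (Sil1, Atf6 and Herpud1), with 11% of all genes rising and 13.5% falling. The additional risers were Creld2, Dnajb11, Pdia3, Ern1 and Ssr1. Leaving out control ASO replicate 1 gave 5 and 1, with 3.24% of all genes rising and 4.94% falling, and leaving out replicate 2 gave 4 and 1, with 2.55% and 3.97%. Either removal lost the calls of Calr, Ppib, Sdf2l1, Sec61b and Atf6, and that of replicate 2 also lost Hyou1. What set the control ASO females apart was not tested. The erythroid level was high in replicate 1 alone, and replicate 2 was at 278 CPM. Replicate 1 was also the highest of 12 livers for the summed markers of Kupffer and stellate cells, at 624 and 672 CPM. Replicate 2 was at 270 and 485 CPM for these sums.

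The presence of an element in the promoter was set beside these changes. Of the 10 tested members with an ERSE or ERSE-II, 2 rose against control ASO (Calr and Pdia6) and none fell, with a median log2 change of 0.15 and a range of -1.07 to 0.60. Of the 22 with a window and neither element, 6 rose and none fell, with a median of 0.17. The remaining riser, Hyou1, and both members that fell had no window listed. Against DPBS the medians were -0.09 and 0.03, and for control ASO against DPBS -0.24 and -0.19. The groups were described by counts and medians, and their difference was not tested.

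Other genes of the secretory pathway were taken from lists of their own. Of 91 such genes tested outside the members, 7 rose and 1 fell against control ASO, where 4.34% of all genes rose and 5.95% fell. Against DPBS 3 rose and 3 fell, where 3.57% of all genes rose and 5.36% fell. The medians were 0.04 and -0.00. Counts of the single lists stand beside the same shares and rest on few genes. In N-glycosylation 2 of 14 rose, both parts of the oligosaccharyltransferase. Ostc was at 37.5 ± 6.68, 29.1 ± 4.41 and 52.2 ± 6.22 CPM in DPBS, control ASO and Upf3b-ASO livers (mean ± SD, n = 4), a log2 change of 0.85 ± 0.15 (SE, adjusted p = 0.006), and Ddost rose by 0.41 ± 0.08 (SE, adjusted p = 0.011). In signal peptide cleavage and targeting 2 of 13 rose, the signal peptidase subunits Sec11a, with 0.43 ± 0.09 (SE, adjusted p = 0.013), and Spcs3, with 0.29 ± 0.07 (SE, adjusted p = 0.032). Sec11a also rose against DPBS (0.44; adjusted p = 0.012). Of 14 genes of disulfide formation, the thioredoxin-fold chaperone Erp29 rose, with 0.43 ± 0.07 (SE, adjusted p = 0.0049), and it rose against DPBS as well (0.40; adjusted p = 0.0064).

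Of 17 genes of export from the ER, Mcfd2 rose, with 0.44 ± 0.09 (SE, adjusted p = 0.011) against control ASO and 0.36 (adjusted p = 0.026) against DPBS. MCFD2 is the partner of LMAN1 in the receptor that carries coagulation factors V and VIII out of the ER. Of 20 further ERAD genes Faf2, which recruits VCP, rose by 0.37 ± 0.07 (SE, adjusted p = 0.0098). Of 17 listed genes downstream of the sensors only 9 passed the filter and were tested, and none of these rose. Ppp1r15b, the constitutive regulator of the eIF2α phosphatase, fell by 0.29 ± 0.07 (SE, adjusted p = 0.027) and against DPBS by 0.32 (adjusted p = 0.017). Of 5 tested substrates of IRE1-dependent decay none was called by edgeR against either group, with 0 at an unadjusted p under 0.05 against control ASO and 1 against DPBS.

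Transcripts were tested on their own, since NMD acts on transcripts. Of 142 tested transcripts of the 41 members, 3 rose and 1 fell against control ASO, where 1% of all 32673 transcripts were called. They were Pdia6-201 (0.62; edgeR adjusted p = 0.039), Edem2-201 (0.55; 0.019), Dnajc10-201 (0.43; 0.0498) and Sil1-201 (-3.89; 4.6e-05), all protein coding. Against DPBS, Sil1-201 and Uggt1-201 (-0.81; 0.032) fell and none rose, beside 0.97% of all transcripts. None of 13 transcripts annotated as NMD substrates, from 6 members, was called by edgeR against either group. An unadjusted p under 0.05 was seen for 7 against control ASO and 3 against DPBS, beside 38 and 19 of the 142 transcripts. The 7 went in both directions. Herpud1-204 and Herpud1-202 were lower, with log2 changes of -1.07 and -0.71, beside -1.07 for their gene. Derl2-204 was higher, with 3.12 (SE 1.28, edgeR adjusted p = 0.36), at means of 0.427 TPM with control ASO and 3.32 TPM with Upf3b-ASO. It was near the floor, ranging from 0 to 1.71 TPM with control ASO and from 0 to 8.71 TPM with Upf3b-ASO. Its mean with DPBS was 1.58 TPM. The median log2 change of the 13 was 0.13 against control ASO and 0.17 against DPBS. The most abundant of them, Herpud1-204, was at 145 ± 42.5, 164 ± 89.97 and 86 ± 31.3 TPM in DPBS, control ASO and Upf3b-ASO livers. Of 39 transcripts with a retained intron none was called by edgeR, with 8 and 2 at an unadjusted p under 0.05. Counts of a transcript depend on how Salmon divided shared reads, so that these values are less certain than those of genes.

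The sexes were compared over all 12 livers with treatment in the fit. Of the 40 members 6 were higher in males, Syvn1, Hyou1, Edem2, Pdia3, Edem3 and Pdia6, and none was higher in females, while 4.3% of all genes were higher and 5.73% lower in males. Syvn1 was at 27.2 ± 11.2 CPM in the 6 females and 45.5 ± 7.28 CPM in the 6 males (SD), a log2 change of 0.81 (SE 0.20, adjusted p = 0.026). Females ranged from 16.6 to 47.5 CPM and males from 35.4 to 54.8 CPM. Hyou1 differed by 0.50 (SE 0.13, adjusted p = 0.032) and Edem2 by 0.34 (SE 0.07, adjusted p = 0.012). On the TPM scale the median of all genes was -0.29 in males against females and that of the members -0.07, and 5 members, Derl1, Derl2, Dnajc10, Edem1 and Os9, were called lower in males by limma, where 33% of all genes were called lower and 1.59% higher. Relative to all genes the members were 0.23 higher on the count scale and 0.21 on the TPM scale. The low control ASO females enter this comparison, and without either of them 2 members were called. An effect of sex on the response to Upf3b-ASO was not called by edgeR for any member (0 of 40 and 0% of all genes). An unadjusted p under 0.05 was seen for 10 of 40 members and 647 of 8846 genes. In these 10 members the log2 change against control ASO was lower in males than in females, by -0.58 (Ssr1) to -1.83 (Creld2). The low control ASO females and the male of replicate 3 enter this term, and their part was not tested. The lowest adjusted p among the members was 0.59.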

How the data were processed

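RNA-seq of 12 mouse livers was analysed. Per the labels and methods of the study, the authors prepared TruSeq libraries, sequenced them on a HiSeq2500 and quantified transcripts with Salmon 0.7.2 against the Ensembl 81 cDNA of GRCm38. In the submitters' processing notes bcl2fastq 2.17.1.14 is also named. Estimated counts, as deposited by the authors, are reads assigned to each transcript and need not be whole. TPM values, as deposited by the authors, are scaled for effective length and sum, so that a few abundant short transcripts can shift all others.

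Transcripts were joined to genes by GENCODE M21 (98.1% of transcripts, 31114 genes). The joined transcripts held 97.5 to 99.3% of the counts of a liver. They held 79.7 to 89.8% of the TPM in Upf3b-ASO livers, 89.5 to 91.4% with control ASO and 85.4 to 95.9% with DPBS. TPM values were not rescaled after the join. Counts were summed per gene and rounded, and 8846 genes that reached 5 TPM in 4 or more livers were tested in R 4.3.3 with edgeR 4.0.16 (quasi-likelihood, TMM, a single fit of all 12 livers with a sex term). Adjustment was by Benjamini-Hochberg over all genes, and an SE is the log2 change divided by the root of its F value. Tables and figures were made in Python 3.11.15. Transcripts with a TPM of at least 1 in 4 livers were tested alike. DESeq2 1.42.0, limma 3.58.1 on TPM values with a pseudocount of 1 or 0.1 on the log2 scale and the other alternatives named below were fitted for comparison, and the scripts were tested on simulated data. Libraries held 13.28 to 20.39 M counts, with the fewest in the Upf3b-ASO group. They had no molecular identifiers, and the SD between mice includes counting error. No pair of replicates agreed within sampling noise.

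Groups, sexes and replicate numbers came from the labels. Nothing states whether mice shared a litter or batch, and the p-values measure the spread between these livers. Livers with the same number deviated together from their group means (correlations of 0.206 to 0.667), but so did livers of the same sex with different numbers (mean 0.517 against 0.522), so that the block holds little beyond sex. It was used as an alternative.

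The members and lists were chosen with earlier results of these data known. Named genes followed a rule. All members were named, with values per liver for those called against either reference group and for BiP, GRP94, Sil1, Xbp1 and the sensors. From each list of other genes, up to 2 per direction with the largest change were named. The likeness of Sil1 to other genes across livers was not computed. Upf1-ASO livers, which the labels name, were not analysed here.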

Additional observations from a re-analysis of the deposited data

Results flagged for a closer look

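Each member, and the summed level of the members, was searched for a single liver far from the other 3 of its group. The measure was the gap to its nearest neighbour relative to the range of the group. Of 126 groups of 4 values, 10 held such a liver. A rate of 1 in 20 (6.3) would apply to independent values from a single population. Each group held both sexes, and the members were measured in the same livers, so that 10 cannot be judged against it. Control ASO replicate 3 accounted for 4 of them. Its Herpud1 was 1551 CPM against 447 to 635 CPM in the rest of its group, its Eif2ak3 56.2 CPM against 17.8 to 20.1 CPM, its Atf6 222 CPM against 118 to 129.9 CPM and its Erlec1 15.1 CPM against 11.65 to 12.1 CPM. All 4 were on the high side and coincided with the high acute phase level of this liver. Its Ern1 was low but not far enough to meet the criterion.

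In the DPBS group, replicate 4 was high for Hspa5 (1005 CPM against 680.3 to 726 CPM) and Hspa13 (86.4 CPM against 52.8 to 56 CPM), replicate 3 for Ern1 (111 CPM against 88.1 to 90.3 CPM) and replicate 1 for Dnajc3 (415 CPM against 393 to 394 CPM), where the gap was small in absolute terms. In the Upf3b-ASO group, replicate 3 was high for Hyou1 (297 CPM against 210.1 to 219 CPM) and for the summed level of the 41 members, 9489 CPM against 8335 to 8379 CPM. The part of these livers in the results was not tested beyond leaving each out in turn.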

How the results depend on the processing

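Against control ASO, the 11 calls among the members became 9 with no filter on low values, 11 with DESeq2 size factors or a transcript length offset (under the latter Dnajc10 was lost and Ern1 gained), 14 by the DESeq2 Wald test and 4 by limma on log2(TPM + 1) or log2(TPM + 0.1). They became 2 with no sex covariate, 6 with only the 2 groups compared, 3 at an adjusted p under 0.01, and 5 to 17 with single livers left out. The 910 calls over all genes became 1584, 347, 334, 519, 363 and 339 under the Wald test, limma with either pseudocount, no sex covariate, 2 groups and the stricter threshold, and 434 to 2168 with single livers left out. Against DPBS, the 4 calls among the members became 2 with no filter, limma with either pseudocount, the length offset or no sex covariate, 9 with 2 groups, 1 at the stricter threshold and 1 to 4 with single livers left out. Over all genes the 790 calls became 1274, 325, 313, 477, 2478 and 324 in the order given above, and 400 to 555 with single livers left out. For control ASO against DPBS the single call was lost (0 genes) under limma, the length offset, the replicate block, 2 groups or the stricter threshold, and the Wald test called 43 genes and 4 members. Single livers left out gave 0 to 5 genes, and 0 members. Between the sexes the 6 calls became 3 with no filter, 11 by the Wald test, 5 by limma in the opposite direction, and 2 to 8 with single livers left out. The 4 called transcripts became 7 at a TPM of at least 5. With the replicate number as a block, 8 members (7 higher, 1 lower) were called against control ASO and 3 against DPBS, with 699 and 606 genes. Calr, Ppib and Atf6 and, against DPBS, Sel1l lost their call (adjusted p = 0.082, 0.071, 0.053 and 0.073), and the block changed no other call of a member in these 2 comparisons. The cause of these changes was not tested, beyond the fewer livers or stricter threshold that some of them impose. 

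In the 2 comparisons of Upf3b-ASO livers, no called value of a member changed sign under any alternative run. Values near 0 that did not pass did so. Against control ASO, they turned from the value in brackets as follows. Hspa5 (0.0039) to -0.0051 under DESeq2 size factors, -0.0051 under the Wald test, -0.0094 under the length offset, -0.13 under no sex covariate. Uggt1 (-0.016) to 0.018 under no filter, 0.11 under limma on log2(TPM + 1), 0.12 under log2(TPM + 0.1), 0.052 under the length offset. Sel1l (-0.10) to 0.056 under limma on log2(TPM + 1), 0.057 under log2(TPM + 0.1). Derl1 (-0.038) to 0.040 under limma on log2(TPM + 1), 0.041 under log2(TPM + 0.1). Erlec1 (0.038) to -0.023 under limma on log2(TPM + 1), -0.026 under log2(TPM + 0.1), -0.10 under the length offset. Sec61a1 (-0.030) to 0.0068 under no filter, 0.10 under limma on log2(TPM + 1), 0.10 under log2(TPM + 0.1), 0.015 under the length offset. Against DPBS, where 20 members were examined under the alternatives, 2 did so. Ern1 (0.035) to -0.0015 under limma on log2(TPM + 1), -0.0018 under log2(TPM + 0.1). Eif2ak3 (0.12) to -0.015 under limma on log2(TPM + 1), -0.018 under log2(TPM + 0.1). With single livers left out, log2 fold changes that crossed 0 ranged from -0.23 to 0.40 for Hspa5, -0.017 to 0.18 for Hsp90b1, -0.17 to 0.41 for Dnajb9, -0.066 to 0.24 for P4hb, -0.093 to 0.037 for Uggt1, -0.40 to 0.33 for Eif2ak3, -0.043 to 0.060 for Edem3, -0.079 to 0.046 for Derl1, -0.033 to 0.14 for Os9, -0.016 to 0.14 for Erlec1 and -0.12 to 0.18 for Sec61a1 against control ASO, and from -0.11 to 0.057 for Hyou1, -0.10 to 0.023 for Calr, -0.19 to 0.062 for Xbp1, -0.0028 to 0.13 for Ern1 and -0.061 to 0.29 for Eif2ak3 against DPBS. Eif2ak3 was positive against control ASO only without control ASO replicate 3. 

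Of the 11 calls against control ASO, those of Sil1, Edem2, Pdia4 and Pdia6 were kept with every liver left out, and those of Calr, Ppib, Atf6, Sec61b and Sdf2l1 in 1 or 2 of 8 such fits. Of the 4 calls against DPBS, Sil1 was kept in all 8 such fits, Dnajc3 and Uggt1 in 5 and Sel1l in 1. Counting depth limited Sil1 in treated livers, Sec61g and Derl3. The search for sites of the Upf3b ASO in the gene bodies with 0, 1 and 2 mismatches was not run, since no genome sequence was used here, and the search of spliced transcripts was added after seeing the data.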

Other observations

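The treated livers were alike in Ern1. It ranged from 94.8 to 98.4 CPM in the Upf3b-ASO group, 88.1 to 110.7 CPM in the DPBS group and 39.4 to 81.4 CPM in the control ASO group. In control ASO replicate 3 the sensors moved in both directions, with Eif2ak3 and Atf6 the highest and Ern1 the lowest of 12 livers. The isomerase Pdia4, the lectin Canx, Dnajc10 and Derl2 were also lowest in this liver. The 12 livers thus do not order the members in a single way, and a high level of Hspa5 or Herpud1 did not go with a high level of every chaperone. These are values of single livers and were not tested.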
